A study of Mus musculus with 12 samples.

Results

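Promoter methylation was examined for 44 mouse genes that send, receive or block Wnt signals: 18 Wnt ligands, 10 Frizzled receptors, 4 co-receptors, 8 secreted inhibitors, 3 R-spondins and the feedback target Axin2. A gene was counted as measured when at least 3 cytosines between 1500 bp upstream and 500 bp downstream of its transcription start site were listed in all 12 libraries. This held for 35 of the 44 genes, among 13141 promoters measured in the whole data set. The 35 promoters held 778 shared cytosines, with between 3 and 53 in each and a median of 22, against a median of 13 over all promoters.

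The libraries came from 2 immortalized mouse embryonic fibroblast (iMEF) lines, each sampled once at day 0 and on days 5, 9, 12, 16 and 20 of doxycycline at 1 µg/mL. Both lines carry the R26M2rtTA/+ and TetOcre alleles, so that doxycycline switches on Cre recombinase in either line. The experimental line is Sdhcfl/fl and loses both copies of exon 4 of Sdhc, a subunit gene of succinate dehydrogenase, whereas the control line is Sdhcfl/wt and keeps 1 intact copy. Fibroblasts of each genotype were immortalized with SV40, and each series follows a single line, so the genotype and other differences between the lines cannot be told apart. The contrast set the 6 control libraries against the 5 induced experimental ones, from days 5 to 20. The experimental day 0 library, taken before induction, is given beside them.

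Reduced representation bisulfite sequencing (RRBS) reads the CpG-rich fragments that a restriction enzyme cutting at CCGG releases, after unmethylated cytosines have been converted. Each value is a beta value, the fraction of reads at a CpG cytosine called methylated, averaged over the cytosines of a promoter. No read counts accompany the values, so the depth at each cytosine is unknown and no counting interval is given. The libraries listed between 932307 and 1716381 cytosines. The fewest were in control day 12, where the values of the 2 strands of a CpG also differed most, by 0.152 on average against 0.0812 to 0.130 in the other libraries. The promoters of 9 fibroblast and epithelial marker genes were measured and do not separate these cell types: those of the fibroblast genes ranged from a mean of 0.00104 in the control series for Fn1 to 0.867 for Col1a2, and epithelial Cdh1 stood at 0.335. The label of the cells was therefore not checked by expression here.

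Wnt proteins are secreted lipid-modified ligands that bind Frizzled receptors at the cell surface. With the co-receptors Lrp5 and Lrp6 they stabilise β-catenin, which enters the nucleus and works with TCF/LEF factors, and with Ror1 and Ror2 they act through routes that do not need β-catenin. Secreted frizzled-related proteins, Dickkopf proteins and Wif1 hold the signal back, R-spondins raise the number of receptors at the surface, and Axin2 is a target that in turn helps to degrade β-catenin. In fibroblasts and other mesenchymal cells these signals are known for roles in growth, migration and differentiation.

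Most of these promoters carried little methylation. The mean over the 12 libraries was under 0.1 in 24 of 35 promoters (68.6%), against 66.7% of all promoters, and above 0.2 in 4 of 35 (11.4%), against 23.9% of all promoters. These 4 were Axin2 (0.71), Fzd10 (0.351), Wnt5a (0.296) and Wnt1 (0.221). The median promoter mean was 0.0478, against 0.0251 over all promoters. The classes differed in their usual level: the median was 0.103 in the 12 measured ligands and 0.0211 in the 10 Frizzled receptors. The lowest was Fzd2, with a mean of 0.00185. Among the 778 cytosines, 597 (76.7%) had a mean under 0.1, 142 were at 0 in every library, and 31, in 9 genes, had a mean above 0.5.

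**Figure D1:**
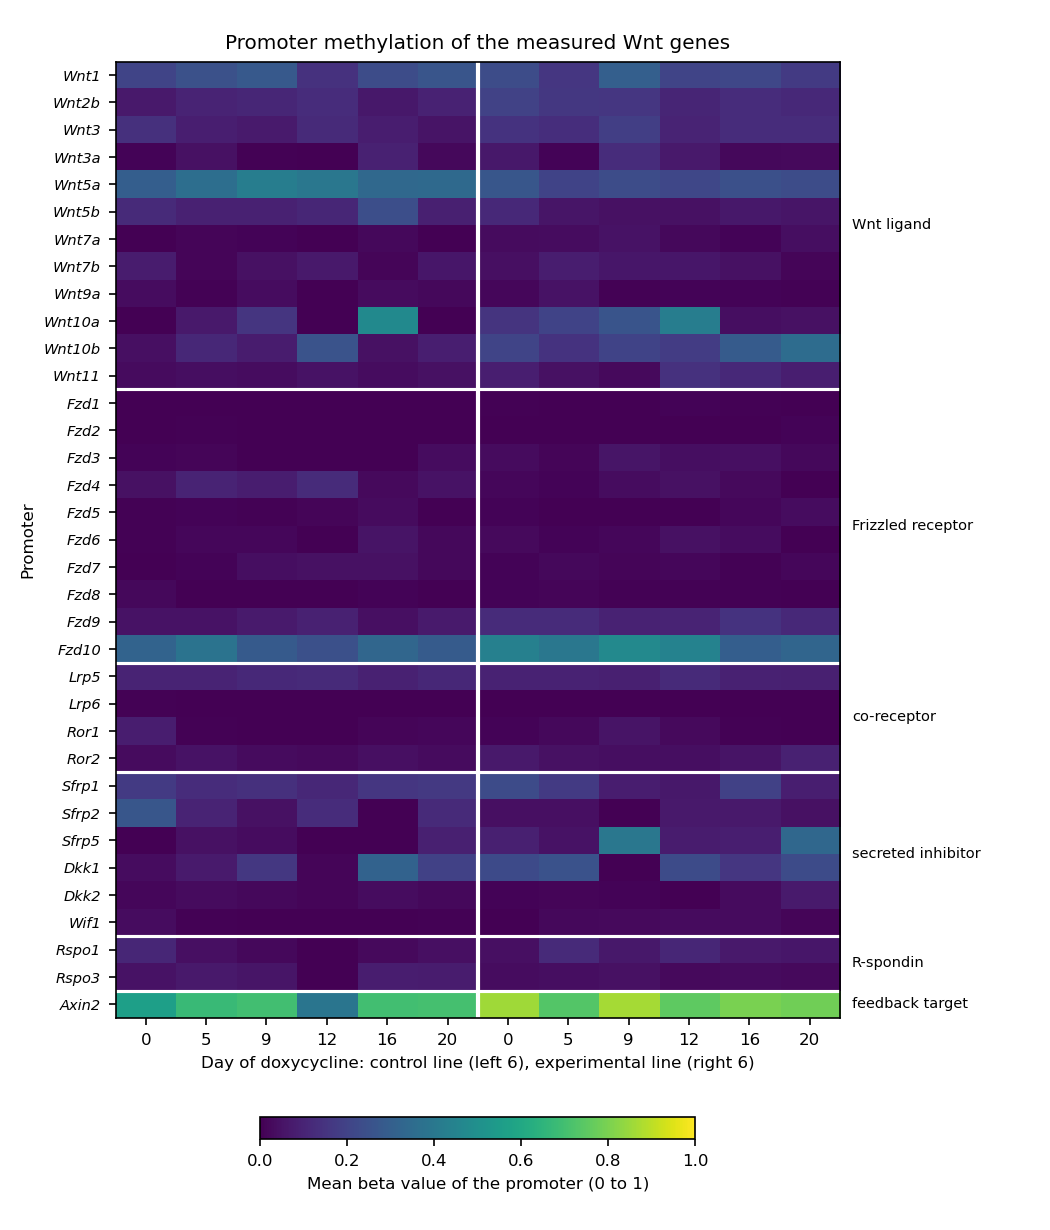
Colour gives the mean beta value (0 to 1) of each of the 35 measured promoters (rows, grouped by role) in each library (columns, by line and day). Axin2 is the brightest row, Fzd10 and Wnt5a stand out among the receptors and ligands, and most of the Frizzled receptors stay near 0 in every library.

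The methylation lay away from the start sites. Averaged over the 12 libraries, the member cytosines had a mean of 0.342 between -1250 and -1001 bp from the start (22 cytosines of 6 genes), 0.120 between -500 and -251 bp, 0.0986 in the last 250 bp before the start, and 0.0448 from 250 bp downstream to the end of the window. Beyond the window the mean was 0.525 more than 5000 bp upstream (to 10000 bp) and 0.529 between 5000 and 10000 bp downstream. In the first 250 bp downstream (238 cytosines of 28 genes) the control libraries ranged from 0.0336 to 0.0498 and the experimental libraries of days 5 to 20 from 0.0495 to 0.0710, with experimental day 0 at 0.0617. The series overlapped slightly there, and the day 0 library lay within the later experimental range. Few genes contribute to the outer bins, so the profile is also a profile of which genes RRBS reached there.

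**Figure D2:**
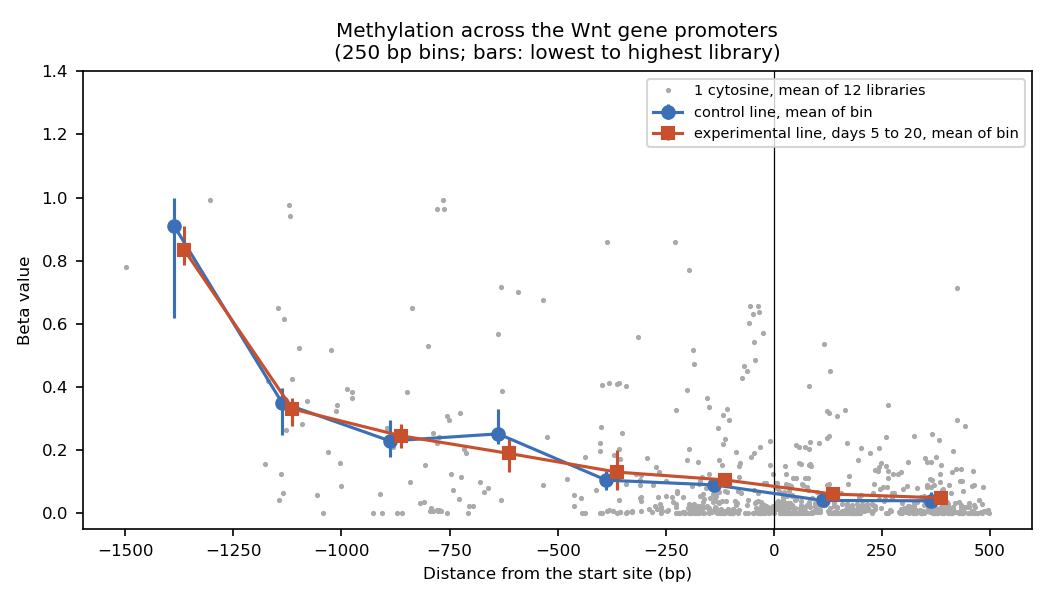
The x axis is the distance from the start site in bp and the y axis the beta value; grey points are single member cytosines (mean of 12 libraries), and the lines join means of 250 bp bins for each series with bars from the lowest to the highest library. The first bin, from -1500 bp, stands at 0.911 (control) and 0.834 (experimental) but holds only 2 cytosines of 2 genes. Both lines then fall from 0.350 and 0.331 in the bin that starts at -1250 bp to 0.0395 and 0.0488 in the last bin downstream.

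Over all 35 promoters, the mean beta value per library ran from 0.0737 to 0.105 in the control series and from 0.0992 to 0.115 in the experimental series of days 5 to 20, with experimental day 0 at 0.112. Over all 13141 promoters these ranges were 0.159 to 0.164 and 0.167 to 0.174, with experimental day 0 at 0.171. The day 0 library therefore lay within the later experimental range both for the Wnt genes and for all promoters. The difference between the lines in the Wnt genes went the same way as that in the data set as a whole.

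Promoters were then tested one by one for a difference between the series, with limma on M-values (the log2 ratio of methylated to unmethylated fraction) and Benjamini-Hochberg adjustment over all 13141 promoters. At an adjusted p under 0.05 the test called 1 of the 35 Wnt promoters (2.86%), Wnt5a, which was lower in the experimental series. Over all promoters the call rate was 2.57% (1.8% higher and 0.769% lower), so the share among the Wnt genes was near the background. At an unadjusted p under 0.05 there were 14 of 35 (40.0%), 11 higher and 3 lower, against 18.1% of all promoters (13.7% higher and 4.44% lower). The 2 sets are not alike: the Wnt promoters held a median of 22 cytosines against 13, and had a median level of 0.0478 against 0.0251. Whether this bears on the shares was not tested. The median M-value difference was 0.28 for the Wnt promoters and 0.19 for all promoters, and 23 of 35 (65.7%) were above 0, against 66.2%. The test for a different slope over days between the lines called 0 of 35 Wnt promoters and 0 of all 13141, a background of 0%. At an unadjusted p under 0.05 the slope test had 0 of 35 Wnt promoters and 693 (5.27%) of all promoters. Wif1 came nearest among the Wnt genes (limma, adjusted p = 0.949).

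**Figure D3:**
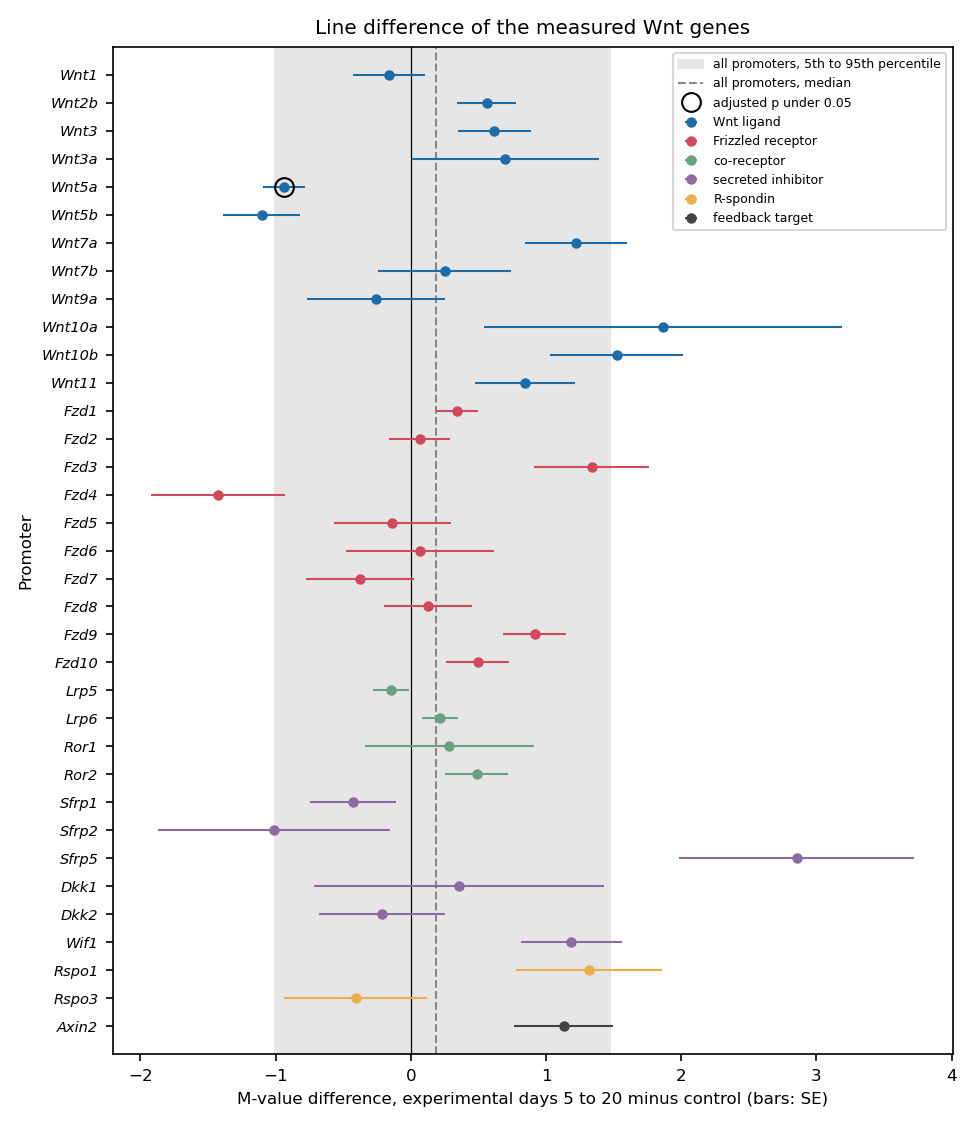
Points are the M-value difference (experimental days 5 to 20 minus control) of each measured promoter with its SE, coloured by role; the grey band spans the 5th to 95th percentile of all promoters and the dashed line their median. Wnt5a, circled, is the promoter past the threshold; Sfrp5 lies farthest to the right, at 2.85.

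In 4 of 35 promoters (11.4%) the 2 series did not overlap, against a background of 4.38% of all promoters, which differ from the Wnt promoters in cytosines and level. Wnt5a and Wnt5b lay lower in the experimental series (background 1.18%) and Fzd9 and Axin2 lay higher (background 3.2%). Wnt5b and Fzd9 were singled out for this after their values were seen. The difference had 1 sign at each of days 5 to 20 in 9 promoters: 7 were higher in the experimental line each day (background 10.7%) and 2 were lower (background 3.9%). At day 0, before induction, 20 of the 35 promoters were higher and 14 lower in the experimental line, and 24 of 35 (68.6%) differed in the same direction as the series means. Over all promoters 52.9% were higher and 37.5% lower at day 0, and 60.9% had the same direction. Promoters at equal values in both lines at day 0 stay in the denominator of these shares. Such ties were more frequent over all promoters than among the Wnt genes, so the shares of the same direction are not on an equal footing. Control day 0 is itself part of the control mean.

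Among the ligands, 12 of 18 were measured, and the test called 1 of them. Wnt5a, which acts mainly through β-catenin-independent routes, had 11 cytosines in its promoter (chr14:28503043-28505042, mm10, plus strand). In the control line its beta value was 0.298, 0.362, 0.426, 0.396, 0.338 and 0.342, in the order of the days sampled. In the experimental line it was 0.269 before induction and then 0.201, 0.231, 0.212, 0.243 and 0.231. Each induced experimental library lay below each control library, and the experimental day 0 library lay between the groups. The means were 0.360 ± 0.0454 (SD, n = 6) and 0.224 ± 0.0169 (SD, n = 5), an M-value difference of -0.94 with an SE of 0.16 (limma, adjusted p = 0.0154). The call was kept when any of the 11 libraries was left out, with adjusted p between 0.0133 and 0.0420, and was lost when cytosines at the same value in all libraries were dropped (adjusted p = 0.0586), in a window of 500 bp to each side (0.109), with day as a block (0.105) and with the median over cytosines (0.375).

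The Wnt5a difference lay upstream of the start. The 3 cytosines at -632, -592 and -533 bp averaged 0.844 ± 0.0977 (SD, n = 6) in the control series and 0.532 ± 0.0610 (SD, n = 5) in the experimental series, with experimental day 0 at 0.648. The 4 cytosines between -382 and -341 bp averaged 0.358 ± 0.0949 and 0.197 ± 0.0536, with experimental day 0 at 0.254. In both parts experimental day 0 lay below every control library, the lowest being control day 0 (0.723 and 0.277). In the part nearer the start it lay within the range of the induced libraries, 0.122 to 0.259. The 4 cytosines between 168 and 194 bp downstream were at 0 in all control libraries and averaged 0.0188 in the experimental series, where day 16 alone held values above 0. No single Wnt5a cytosine passed the test on its own: the lowest adjusted p was 0.280, at -533 bp. The Wnt5a promoter thus had a methylated upstream flank, lower in the induced experimental libraries and already lower at experimental day 0, before induction. No cytosine was measured between -341 and 168 bp, so the start itself was not observed.

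Wnt5b, a paralog of Wnt5a, had 28 cytosines (chr6:119544325-119546324, minus strand). The control libraries ranged from 0.0879 to 0.240 and the induced experimental libraries from 0.0431 to 0.0646, while experimental day 0, at 0.117, was close to control day 0 at 0.121. The M-value difference was -1.10 with an SE of 0.28 (limma, adjusted p = 0.0729), and it passed the threshold without control day 16, the library at 0.240. The most upstream Wnt5b start in the RefSeq promoter table lies 477 bp away, with 38 cytosines in its window. There the M-value difference was -0.84 (limma, adjusted p = 0.169), and experimental day 0 was 0.0108 above control day 0. The other Wnt5b values given here are for the main window. The lines were nearest at day 0 in both Wnt5 promoters, differing by -0.0286 in Wnt5a and -0.00401 in Wnt5b, and the experimental line was lower at each later day. In Wnt5a control day 0 was the lowest control library, and experimental day 0 lay below all 6 control libraries. The change from day 0 rests on 1 library in each line and was not tested.

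**Figure D4:**
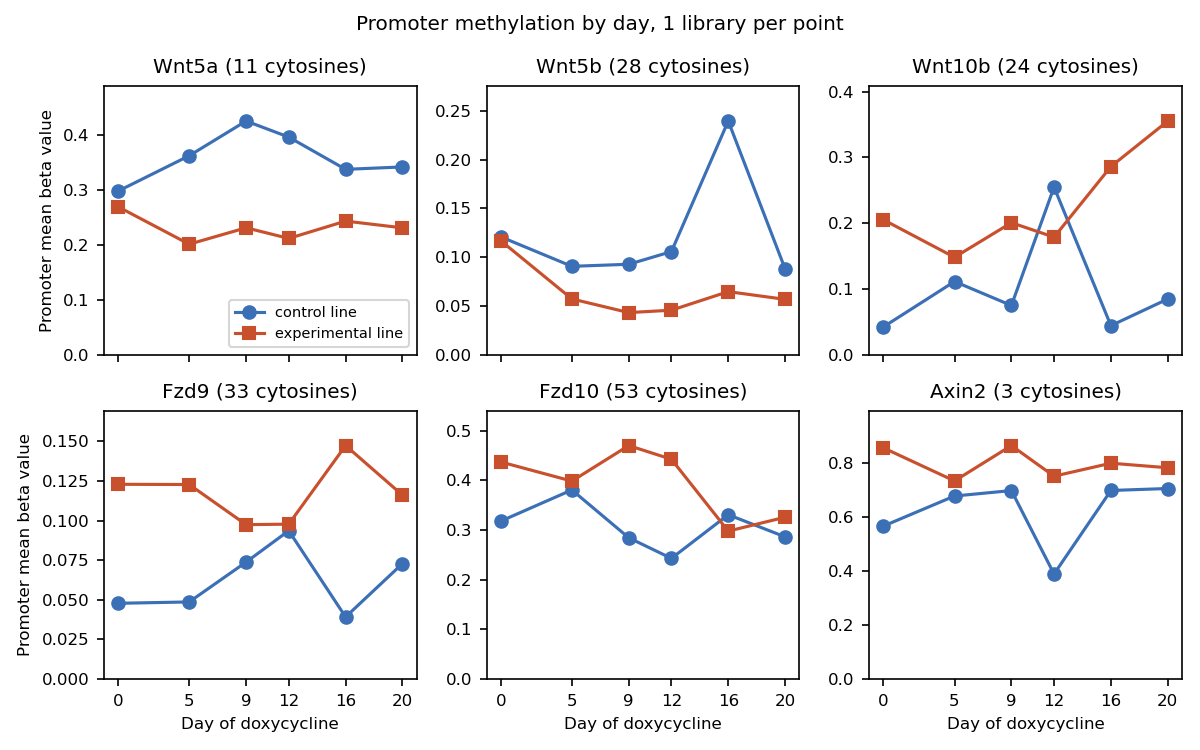
Each panel plots the promoter mean beta value (y axis, from 0) of 1 gene against day of doxycycline (x axis) in the control (circles) and experimental (squares) line, 1 library per point. In Wnt5a and Wnt5b the lines are nearest at day 0, whereas in Wnt10b, Fzd9, Fzd10 and Axin2 the experimental line is already higher at day 0.

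Wnt1 and Wnt10b, both ligands of the β-catenin route, are neighbours on chromosome 15 with start sites 11651 bp apart. Wnt10b had 24 cytosines (chr15:98777707-98779706, minus strand). The control line read 0.0421, 0.111, 0.0746, 0.255, 0.0439 and 0.0845 on days 0 to 20. The experimental line read 0.205 at day 0 and then 0.148, 0.201, 0.179, 0.286 and 0.355. The experimental line was higher at each day but day 12. The series means were 0.102 ± 0.0792 (SD, n = 6) and 0.234 ± 0.0851 (SD, n = 5), with an M-value difference of 1.52 and an SE of 0.49 (limma, adjusted p = 0.135). Without control day 12, the library with the fewest cytosines, the difference was 1.87 and the adjusted p 0.0335. In that library 3 neighbouring Wnt10b cytosines between 194 and 223 bp downstream were at 1, where no other control library exceeded 0.0696.

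The upstream sequence of Wnt10b is shown for comparison with the stretch downstream, where the lines lay further apart, and 21 bases of that stretch because they hold a cytosine past the threshold on its own. Sequences here and below are from RefSeq (GRCm38.p6, the assembly of mm10), 5′ to 3′ on the strand of the gene, with CpGs that hold at least 1 cytosine measured in all 12 libraries in capitals.
Wnt10b upstream (chr15:98778207-98778400, minus strand): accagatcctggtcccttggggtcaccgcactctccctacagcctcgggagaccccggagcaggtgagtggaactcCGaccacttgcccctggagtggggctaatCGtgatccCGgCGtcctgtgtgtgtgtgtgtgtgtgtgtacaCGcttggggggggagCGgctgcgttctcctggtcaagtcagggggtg
Wnt10b around the called cytosine (chr15:98778137-98778157, minus strand): ccgtcagctCGagcagaacca

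The capital CpG of the short run holds the cytosine at chr15:98778147, 59 bp downstream of the start. It read 0, 0, 0.0693, 0.0141, 0 and 0.0513 on days 0 to 20 in the control line. In the experimental line it read 0.400 at day 0, then 0.308, 0.529, 0.154, 0.435 and 0.545 on days 5 to 20. All 6 experimental libraries, day 0 included, lay above the control libraries, and the M-value difference was 4.78 with an SE of 0.78 (limma over single cytosines, adjusted p = 0.0254). This call is fragile: it was lost in 6 of 11 fits with 1 library left out (control days 0 and 16, experimental days 5, 9, 16 and 20) and with day as a block. The 17 Wnt10b cytosines downstream of the start averaged 0.0709 ± 0.0851 in the control series and 0.246 ± 0.101 in the experimental series, whereas the 7 upstream averaged 0.177 ± 0.0993 and 0.204 ± 0.0565.

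Wnt1 had 26 cytosines (chr15:98788357-98790356, plus strand), all upstream of its start. The promoter mean was 0.207, 0.248, 0.280, 0.142, 0.232 and 0.263 on days 0 to 20 in the control line. It was 0.233 at day 0 and then 0.158, 0.303, 0.207, 0.211 and 0.168 on days 5 to 20 in the experimental line. The groups overlapped, with means of 0.229 ± 0.0493 (SD, n = 6) and 0.209 ± 0.0572 (SD, n = 5) and an M-value difference of -0.16 with an SE of 0.26 (limma, adjusted p = 0.789). Within the promoter the level ran from 0.992 at -1305 bp to 0 in all libraries at -98 and -95 bp. The bases next to the start are shown as the low end of this gradient.
Wnt1 upstream (chr15:98789607-98789856, plus strand): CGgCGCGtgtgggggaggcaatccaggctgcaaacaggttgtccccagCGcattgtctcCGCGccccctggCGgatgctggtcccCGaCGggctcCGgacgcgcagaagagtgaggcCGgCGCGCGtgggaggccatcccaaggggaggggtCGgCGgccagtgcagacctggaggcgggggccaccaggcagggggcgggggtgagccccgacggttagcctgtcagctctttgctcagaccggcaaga

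The run held 23 CpGs, 16 of them measured, and its 18 cytosines averaged 0.102 ± 0.0528 in the control series and 0.0642 ± 0.0222 in the experimental series. Of these neighbours, Wnt10b held a called cytosine and Wnt1 held none.

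Wnt10a, a ligand known for its part in tooth and hair development, had 5 cytosines between 51 and 82 bp downstream of its start (chr1:74790519-74792518, plus strand). The control line read 0, 0.0667, 0.156, 0, 0.473 and 0 on days 0 to 20. The experimental line read 0.150 at day 0 and then 0.2, 0.259, 0.424, 0.0364 and 0.0435. The series overlapped throughout, and the difference of the means, 0.0765, was smaller than the SD of either series, 0.185 and 0.162 (limma, adjusted p = 0.501).

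The remaining ligand promoters had control means between 0.00817 (Wnt7a) and 0.0927 (Wnt2b) and experimental means between 0.0156 (Wnt9a) and 0.134 (Wnt3). None of Wnt2b, Wnt3, Wnt3a, Wnt7a, Wnt7b, Wnt9a and Wnt11 passed the threshold. In Wnt11, a ligand of β-catenin-independent signalling, 1 cytosine did, 392 bp downstream of the start (chr7:98835476). It was at 0 in 5 control libraries and at 0.0114 in control day 20, and between 0.0385 and 0.351 in the induced experimental libraries, with experimental day 0 at 0.128 (limma over single cytosines, M-value difference 3.83, SE 0.60, adjusted p = 0.0204). It lost its call on the beta value scale, with an offset of 0.05 and with day as a block.

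All 10 Frizzled receptors were measured and 9 of them had a mean under 0.1; the test called none of the 10. Fzd10 was the exception in level. It had 53 cytosines (chr5:128599606-128601605, plus strand), the most of any member. Its beta value was 0.318, 0.380, 0.284, 0.243, 0.331 and 0.286 on days 0 to 20 in the control line. In the experimental line it was 0.437 at day 0 and then 0.398, 0.470, 0.442, 0.298 and 0.326. The experimental line was higher at each day but day 16, and the groups overlapped. The means were 0.307 ± 0.0472 (SD, n = 6) and 0.387 ± 0.0738 (SD, n = 5), an M-value difference of 0.50 with an SE of 0.23 (limma, adjusted p = 0.295). Unlike the profile over all members, methylation reached to the start: the bases just upstream are shown because they are CpG-dense and methylated in both lines.
Fzd10 upstream (chr5:128600856-128601105, plus strand): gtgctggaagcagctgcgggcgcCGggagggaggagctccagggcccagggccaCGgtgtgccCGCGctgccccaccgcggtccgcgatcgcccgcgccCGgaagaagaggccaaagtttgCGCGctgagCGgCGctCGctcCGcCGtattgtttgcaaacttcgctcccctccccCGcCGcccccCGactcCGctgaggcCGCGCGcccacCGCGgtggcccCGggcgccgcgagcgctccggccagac

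Of the 37 CpGs in this run 22 were measured, and their 22 cytosines averaged 0.379 ± 0.0600 in the control series and 0.480 ± 0.0825 in the experimental series. The single cytosines ranged widely: that at -196 bp averaged 0.873 in the control series, and that at -105 bp averaged 0.0749 in the control series and 0.485 in the experimental series (limma over single cytosines, adjusted p = 0.126).

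Fzd9 gives the contrast, a promoter with a clean start. It had 33 cytosines (chr5:135250548-135252547, minus strand). The control line read 0.0478, 0.0487, 0.0738, 0.0936, 0.0392 and 0.0729 on days 0 to 20. The experimental line read 0.123 at day 0 and then 0.123, 0.0975, 0.0978, 0.147 and 0.116. All experimental libraries, day 0 included, lay above the control libraries, by a narrow margin at day 12, when the values were 0.0978 and 0.0936. The means were 0.0627 ± 0.0208 (SD, n = 6) and 0.116 ± 0.0207 (SD, n = 5), an M-value difference of 0.92 with an SE of 0.23 (limma, adjusted p = 0.0652). It passed the threshold on the beta value scale, with an offset of 0.05, when experimental day 0 was counted in the experimental series, and without control day 12.
Fzd9 upstream (chr5:135251048-135251297, minus strand): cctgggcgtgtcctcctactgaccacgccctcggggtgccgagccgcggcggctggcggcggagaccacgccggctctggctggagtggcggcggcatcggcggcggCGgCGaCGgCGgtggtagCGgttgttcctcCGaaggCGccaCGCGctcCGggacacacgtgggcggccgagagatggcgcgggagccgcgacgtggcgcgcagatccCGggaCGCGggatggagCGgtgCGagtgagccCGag

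This run held 42 CpGs, the most of those shown, and its 16 measured cytosines averaged 0.0156 ± 0.0121 in the control series and 0.0290 ± 0.0153 in the experimental series. The difference lay downstream, where 17 cytosines averaged 0.107 ± 0.0399 and 0.199 ± 0.0395. The cytosine 423 bp downstream (chr5:135250624) passed the threshold on its own. It was at 0 in 4 control libraries, at 0.179 in control day 9 and at 0.0149 in control day 20. The experimental line read 0.5 at day 0 and then 0.537, 0.333, 0.667, 0.833 and 0.474 (limma over single cytosines, M-value difference 6.14, SE 0.93, adjusted p = 0.0183). It lost its call without experimental day 12 and with day as a block. The high level was present before induction.

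**Figure D5:**
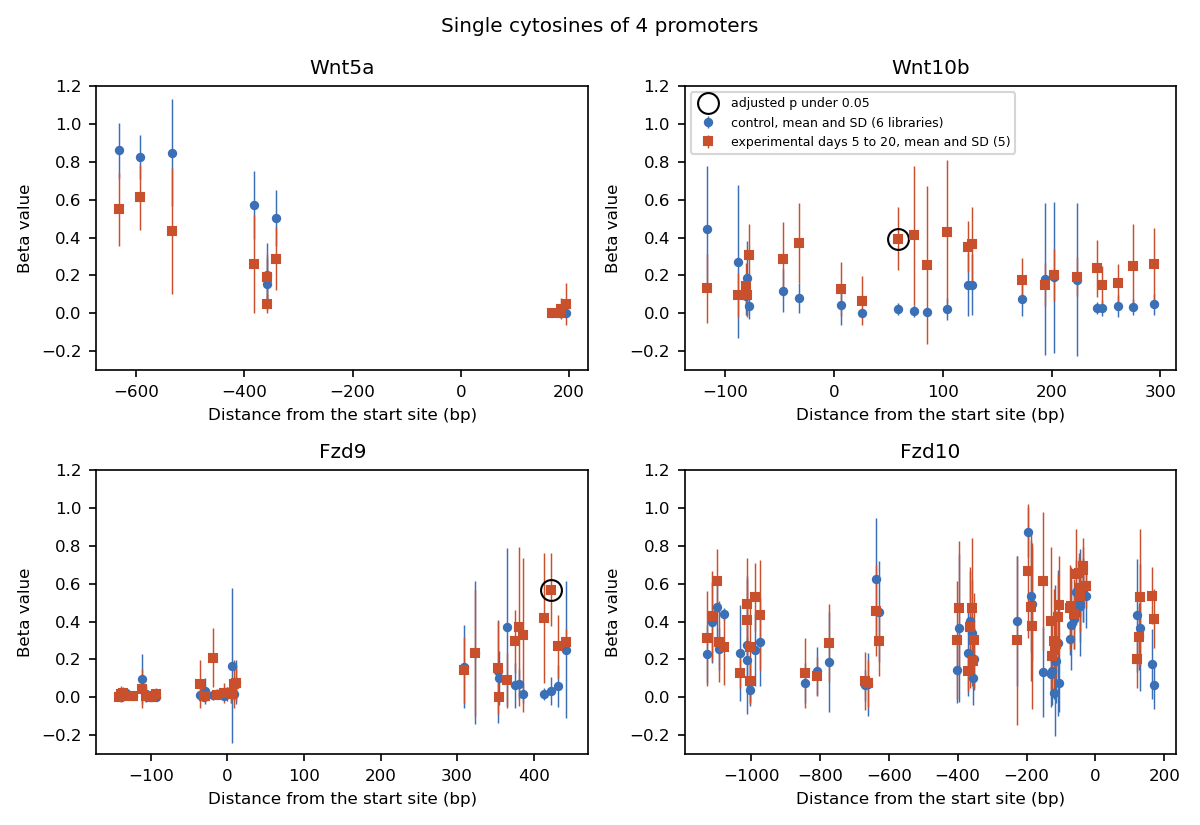
Each panel plots the beta value of single cytosines (y axis) against distance from the start site in bp (x axis) for 4 promoters, as mean and SD of the control (circles, 6 libraries) and induced experimental (squares, 5 libraries) series; circled points passed the threshold. The Wnt5a difference lies in the methylated flank upstream, whereas those of Wnt10b and Fzd9 lie in stretches that are low in the control line.

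Fzd4, the receptor that also binds norrin, had 32 cytosines in a window shared with the promoter of Tmem135, and its promoter and its called cytosine went opposite ways. The promoter averaged 0.0702 ± 0.0380 (SD, n = 6) in the control series and 0.0227 ± 0.0176 (SD, n = 5) in the experimental series (limma, M-value difference -1.43, SE 0.49, adjusted p = 0.160). The cytosine at -696 bp (chr7:89403670) was at 0 in all 6 control libraries and between 0.0227 and 0.0930 in the induced experimental libraries, with experimental day 0 at 0.0312 (limma over single cytosines, M-value difference 2.58, SE 0.40, adjusted p = 0.0194). It lost its call on the beta value scale, with an offset of 0.05 and with day as a block. Such a difference of a few percent, from a depth that is unknown, is small. The other 7 receptors, Fzd1, Fzd2, Fzd3, Fzd5, Fzd6, Fzd7 and Fzd8, had series means between 0.00137 and 0.0343.

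The co-receptors Lrp5, Lrp6, Ror1 and Ror2 were all measured, and none passed the threshold. Lrp6 was lowest, with no library above 0.00417. Lrp5 averaged 0.106 ± 0.0103 (SD, n = 6) and 0.0962 ± 0.0132 (SD, n = 5), and its 4 cytosines more than 500 bp upstream carried nearly all of this, at 0.937 and 0.906. The 38 others lay between -500 bp and the end of the window, at 0.0237 or less in either part and series. Ror2, a receptor for Wnt5a, averaged 0.0342 ± 0.00839 and 0.0526 ± 0.0221 (limma, adjusted p = 0.303), with 1 cytosine at -386 bp at 0.860 over the 12 libraries.

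Of the 8 secreted inhibitors 6 were measured, and none passed the threshold. Sfrp5, a secreted frizzled-related protein that binds Wnt5a, had the largest M-value difference of the set, on only 3 cytosines (chr19:42201753-42203752, minus strand). The control line read 0, 0.0439, 0.0333, 0, 0 and 0.0876 on days 0 to 20. The experimental line read 0.0882 at day 0 and then 0.0492, 0.397, 0.0769, 0.0855 and 0.333. Days 9 and 20 of the experimental line stood apart from the rest, and days 5, 12 and 16 lay inside the control range, with day 0 just above its highest value. The means were 0.0275 ± 0.0352 (SD, n = 6) and 0.188 ± 0.163 (SD, n = 5), an M-value difference of 2.85 with an SE of 0.87 (limma, adjusted p = 0.117). Sfrp1, Sfrp2, Dkk1, Dkk2 and Wif1 had control means from 0.00741 (Wif1) to 0.145 (Sfrp1) and experimental means from 0.0239 (Wif1) to 0.172 (Dkk1). Wif1, which binds Wnt ligands directly, passed the threshold without control day 0, where it read 0.0321 against at most 0.00655 in the other control libraries.

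The R-spondins Rspo1 and Rspo3 did not pass the threshold, though Rspo3 did without control day 12. Rspo1 averaged 0.0388 ± 0.0361 (SD, n = 6) and 0.0842 ± 0.0270 (SD, n = 5), and Rspo3 averaged 0.0550 ± 0.0292 and 0.0324 ± 0.00894. Over the whole Rspo1 promoter the series overlapped, at 0 to 0.106 and 0.0589 to 0.119 (limma, adjusted p = 0.230). The 3 Rspo1 cytosines upstream of the start ran from 0 to 0.161 in the control libraries and from 0.223 to 0.310 in the induced experimental libraries, with experimental day 0 at 0.155, inside the control range. No rule set in advance chose this part of the promoter. It was not tested by itself, and no share over all promoters is given for such parts.

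Axin2 was the most methylated member, but its value depends on the start site used. At the outermost RefSeq start 3 cytosines were measured (chr11:108916328-108918327, plus strand). The control line read 0.566, 0.677, 0.698, 0.389, 0.698 and 0.705 on days 0 to 20. The experimental line read 0.856 at day 0 and then 0.733, 0.864, 0.751, 0.799 and 0.782. All experimental libraries lay above the control libraries, the lowest of which was control day 12. The means were 0.622 ± 0.126 (SD, n = 6) and 0.786 ± 0.0508 (SD, n = 5), an M-value difference of 1.13 with an SE of 0.37 (limma, adjusted p = 0.136). At the start listed in the RefSeq promoter table, 2521 bp further downstream, 26 cytosines averaged 0.0609 ± 0.0139 and 0.0762 ± 0.0130 (limma, adjusted p = 0.415). The 2 starts thus give a methylated and a nearly unmethylated Axin2 promoter.

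The same table gives measurable promoters to 3 of the 9 members with fewer than 3 cytosines at the outermost start. Wnt2 had 25 cytosines there and averaged 0.311 ± 0.0561 (SD, n = 6) and 0.389 ± 0.106 (SD, n = 5), Wnt6 had 16 and averaged 0.0494 ± 0.0138 and 0.0974 ± 0.0335, and Wnt9b had 27 and averaged 0.114 ± 0.0501 and 0.151 ± 0.0358. None passed the threshold (limma, adjusted p = 0.485, 0.149 and 0.488). The use of these starts was chosen after the data were seen. Wnt4, Wnt8b, Wnt16, Sfrp4, Dkk3 and Rspo2 had no shared cytosine in the main window. At the start in the table Wnt4, Wnt8b and Wnt16 also had none, and the table lists no start for Sfrp4, Dkk3 and Rspo2.

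Over single cytosines, the test called 4 of the 636 member cytosines that varied (0.629%), against a background of 0.615% of 508351, and all 4, those of Wnt10b, Wnt11, Fzd4 and Fzd9, were higher in the experimental series. The background rate in that direction was 0.335%. At an unadjusted p under 0.05 there were 56 (8.81%), 49 higher and 7 lower, against 12.1% of all cytosines (6.77% higher). Each of the 4 called cytosines was also above every control library at experimental day 0.

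The promoters themselves share features that the choice of members did not use. Of the 44 members, 30 were matched in the RefSeq promoter table (250 bases before to 50 after a start). Their sequences held a median of 29 CpGs, against 7 over the 32851 promoters of that table. CCGG, a palindrome that holds a CpG and at which the RRBS enzyme cuts, lay in 28 of 30 (93.3%), against 52.8%. This reference is a larger set than the 13141 measured promoters. The TCF/LEF motif CTTTGAT, searched on both strands, lay in 1 of 30 (3.33%), in Wnt11, against 3.73% of the promoters of the table. It holds no CpG and so cannot lie within a CCGG site.

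Of 67 other Wnt pathway genes, 52 were measured and the test called 3 (5.77%), all higher in the experimental series, beside the background of 2.57%. Lrp4, a receptor that holds Wnt signals back, averaged 0.155 ± 0.0498 (SD, n = 6) and 0.308 ± 0.0565 (SD, n = 5), with experimental day 0 at 0.306 (limma, adjusted p = 0.0417). Nkd1, an inhibitor that binds Dishevelled, averaged 0.0167 ± 0.0129 and 0.0752 ± 0.0304, with experimental day 0 at 0.0827 (limma, adjusted p = 0.0398). The Nkd1 window overlaps the promoter of Gm35162. The RefSeq promoter table lists an Nkd1 start 6291 bp away, where 0 cytosines were shared. Pygo2, a nuclear partner of β-catenin, was at 0 in all control libraries and averaged 0.00536 ± 0.00270 in the experimental series, with experimental day 0 also at 0 (limma, adjusted p = 0.0433). This difference is small on the beta value scale, and with controls at 0 its M-value depends on the offset of 0.01. Whether these 3 calls hold in the alternative fits is not given here. Besides Lrp4, the differences of the series means were widest for Apc2, a relative of the tumor suppressor Apc, and Dkkl1, a Dickkopf-like secreted protein. Apc2 averaged 0.0889 ± 0.0428 and 0.360 ± 0.121, with experimental day 0 at 0.490 (limma, adjusted p = 0.0539), and Dkkl1 averaged 0.663 ± 0.131 and 0.573 ± 0.144 (adjusted p = 0.576). The median M-value difference of the 52 promoters was -0.07, and 25 of them were above 0.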

How the data were processed

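The 12 RRBS libraries measure DNA methylation. The authors aligned the reads to mm10 and called methylation with Bismark (version not given in the sources used here), and deposited a percent methylated at every listed CpG cytosine, without read counts. Each percent was divided by 100. A promoter window began 1500 bp before and ended 500 bp after the outermost start of RefSeq genes (GRCm38.p6) and needed 3 or more of the 606488 autosomal cytosines listed in all libraries, of which 508351 varied. The series were compared with limma 3.58.1 (R 4.3.3) on M-values with an offset of 0.01, two-sided, adjusted by Benjamini-Hochberg, and called at 0.05. Strand came from the RefSeq promoter table or, matched by symbol, from the NCBIM37 annotation, and 15486 of 15528 genes in both had the same strand. Each line is sampled once per day, so the days serve as replicates of a line and the p-values measure the spread between libraries of 1 culture series.

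The members and the gene lists were chosen with earlier results of these data known. Values in every library are given for members past the threshold, the 6 with the largest difference between series means, and those with a mean above 0.2; of the pathway genes, those past the threshold and the 3 with the largest difference are given. Simulations drew normal values with the residual spread of each feature and changed 200 promoters among 13141 or 200 cytosines among 508351. Of the promoters, 54.5% were called after an M-value change of 2 and 91.5% after one of 4. With a slope changed over the time course, 0% of 200 promoters were called after a change of 2 and 27.5% after one of 4. Of the cytosines, 0% were called after a change of 2 and 5% after one of 4. The adjustment is stricter when few features change, and the cytosine test of the data called 3124. These rates therefore hold for the simulated setting and are not detection rates of the tests reported here. Alternatives were other offsets and scales, sets of cytosines, windows and start sites, day as a block, and each library left out in turn. For the line difference the block was fitted on days 5 to 20 only, without control day 0. Figures were drawn with matplotlib 3.10.9 in Python 3.11.15 (numpy 2.4.6, pandas 2.3.3). Gene expression was not used here.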

Additional observations from a re-analysis of the deposited data

Results flagged for a closer look

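Dixon's criterion flags a library whose gap to the nearest other is large for the range of its group. Chance gives this in about 1 in 20 groups of normally distributed values. Of 70 groups (35 promoters in each of the 2 series), 7 held such a library. In the control series these were Wnt5b at day 16 (0.240, next 0.121), Wnt10a at day 16 (0.473, next 0.156), Wnt10b at day 12 (0.255, next 0.111), Ror1 at day 0 (0.0796, next 0.0167), Wif1 at day 0 (0.0321, next 0.00655) and Fzd2 at day 5 (0.00769, next 0.00274). In the experimental series it was Wnt9a at day 5 (0.0482, next 0.0111). Each was the highest of its group. Since 24 of the 35 promoters had a mean under 0.1, near the floor of 0, the rate of 1 in 20 need not hold here. Without control day 16 Wnt5b passed the threshold, without control day 12 Wnt10b did, and without control day 0 Wif1 did.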

How the results depend on the processing

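The count of promoters called (338 of 13141) was 8 with day as a replicate block, 36 with the median over cytosines, 211 in the window of 500 bp, and 165 to 360 with 1 library left out, lowest without experimental day 5 (165), experimental day 12 (173) and control day 5 (215). The count of Wnt promoters called (1) was 0 with the block, without cytosines at the same value in all libraries and in the window of 500 bp, was 2 with the offset of 0.05, on the beta value scale, with experimental day 0 counted and without control day 0, and was 1 to 4 with 1 library left out, highest without control day 12 (Fzd9, Rspo3, Wnt10b and Wnt5a). With the median over cytosines it was 1, but this was Wnt10b (adjusted p = 0.0494) and not Wnt5a. Wnt5a passed in 18 of 22 distinct alternatives, of which 11 were fits with 1 library left out. The RefSeq promoter table lists no start for Wnt5a, and its window held 11 cytosines. The alternative start and the minimum of 5 cytosines therefore left the Wnt5a values unchanged. The slope test called 0 promoters in every alternative run, with 1 library left out too. For cytosines the count (3124) was 5954 on the beta value scale, 5275 with the offset of 0.05, 0 with the block and 2240 to 3741 with 1 library left out; for member cytosines (4) it was 0 with the block and 3 to 6 with 1 library left out. On the beta value scale and with the offset of 0.05 it was 3, the cytosines of Wnt11 and Fzd4 giving way to one of Rspo1 (chr4:124985999).

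Over all promoters, same-day deviations from the series means correlated between -0.0380 and 0.0198, so no pairing by day was seen across promoters as a whole. A day effect shared by the lines at single promoters was not tested. The block is given as an alternative. For the line difference it covers days 5 to 20 and so also leaves out control day 0. Under it Wnt5a differed by -1.02 (limma, adjusted p = 0.105), the same difference as without control day 0 alone. The level of the members was also followed, as the median over promoters in each library, averaged over the libraries of a series (0.0359 control, 0.0499 experimental). This level was 0 in both series with the median over cytosines, and 0.0551 and 0.0717 with all cytosines listed in each library. In the experimental series it was 0.0610 without constant cytosines and 0.0409 in the window of 500 bp. The number of members above 0.2 (4) was 2 with the median and in the window of 500 bp (Fzd10 and Axin2). It was 5 with all cytosines listed in each library, where Wnt9b, Wnt10a and Sfrp4 joined Fzd10 and Axin2 while Wnt1 and Wnt5a dropped out, and 4 with the table's starts, where Wnt2 replaced Axin2. The causes of these shifts were not tested. With no read counts, values over 3 to 6 cytosines (Axin2, Sfrp5, Wnt10a, Fzd2, Dkk1) are the least certain.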
